A study of Ipomoea batatas with 28 samples.

Results

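Storage roots of 10 mm (4 libraries) were compared with pencil roots of 5 mm (4 libraries) in sweet potato (Ipomoea batatas). They are part of a series of 28 libraries on root thickening. The 8 libraries were taken by their stage labels, S14 for the 10 mm roots and S12 for the 5 mm roots. All roots were wild type, the labels name no treatment, and RNA came from the middle section of the root. The other stages were fibrous roots of 1.5 mm (S4) and 2 mm (S8), pencil roots of 3.5 mm (S10) and storage roots of 15 mm (S16) and 25 mm (S20), with 4 biological replicates each. The title of the series places the work in the initiation of root tuberization.

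Storage roots of sweet potato arise from ordinary roots in which a vascular cambium and further cambia inside the xylem form thin-walled cells that fill with starch. The same tissue accumulates sporamin, the main storage protein of this crop. Roots that instead lignify their central cylinder can remain fibrous or pencil roots. A pencil root is thickened but is not a storage organ, so the comparison of 5 mm with 10 mm roots crosses from one class to the other. Different roots were grouped by diameter, so diameter, class and time cannot be told apart. Words such as change, rise and before refer to the order of diameters.

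Values are TPM, a transcript abundance per length that has the same total in every library, in a table of 99697 rows. Each row is called an ID, because the rows carry numbers in place of gene names and 0 IDs matched the 175826 rows of the reference gene table. No function can therefore be given to any ID, and the labels "pencil" and "storage" could not be checked against markers of starch, sporamin or lignin. A TPM value is a share of the library, so fewer cells of a type and less RNA per cell cannot be told apart. Of all IDs, 75757 had at least 1 TPM in at least 4 of the 28 libraries and were tested. The filter left out 3082 IDs that reached 1 TPM in exactly 3 libraries (median of their mean TPM 0.386) and kept 2696 that reached it in exactly 4 (0.471).

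The 10 mm roots differed from the 5 mm roots in 3880 IDs, which was 5.12% of those tested. Of these, 2554 were higher (3.37%) and 1326 lower (1.75%) in the 10 mm roots. A call needed a limma p under 0.05 after Benjamini-Hochberg adjustment and a log2 change of 1 or more in size. Changes are on the log2(TPM + 1) scale, on which those of low IDs come out too small. The higher and the lower IDs lay at different levels. IDs called higher had a median of 1.59 TPM at S12 and 6.58 TPM at S14, and IDs called lower had medians of 16.01 TPM and 3.64 TPM. The median log2 change was 1.35 among the higher IDs, with quartiles of 1.14 and 1.68, and -1.66 among the lower IDs, with quartiles of -2.13 and -1.31. Over all tested IDs the median was 0.10. Fitted log2 changes of 3 or more in size were called for 59 higher and 53 lower IDs, of which 7 each were listed at 0 in all libraries of a stage, so that their size depends on the pseudocount. The excess of higher calls depended on the pseudocount and the scaling. With a pseudocount of 5 it turned around, to 679 higher and 731 lower IDs. It was smaller in the other scalings, with 1543 higher and 1424 lower after median-of-ratios scaling, and 1761 and 1631 after quantile normalization. The calls made under each of the 3 scalings were 1456 higher and 1198 lower IDs.

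The direction of change went with the mean level over the 28 libraries. This mean is not independent of direction. The lower IDs were high from S4 to S12, and the higher IDs only from S14 to S20, which moves the lower IDs to higher classes. In the higher of the stages S12 and S14 the median was 6.58 TPM for the higher and 16.01 TPM for the lower IDs. Among called IDs with a mean under 1 TPM over the 28 libraries, 86.2% were higher at S14. The share fell to 83.4% for means of 1 to 5 TPM, 67.5% for 5 to 10 TPM, 47.5% for 10 to 50 TPM, 20.4% for 50 to 100 TPM and 10.6% above that. The same order was found after median-of-ratios scaling, from 81.7% in the lowest class to 8.37% in the highest, and after quantile normalization, from 67.7% to 22.1%. Of all tested IDs, 14.1% of those at 100 TPM or more and 2.14% of those under 1 TPM were called. Among the 1343 tested IDs at 100 TPM or more, 169 were lower and 20 higher at S14.

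**Figure D1:**
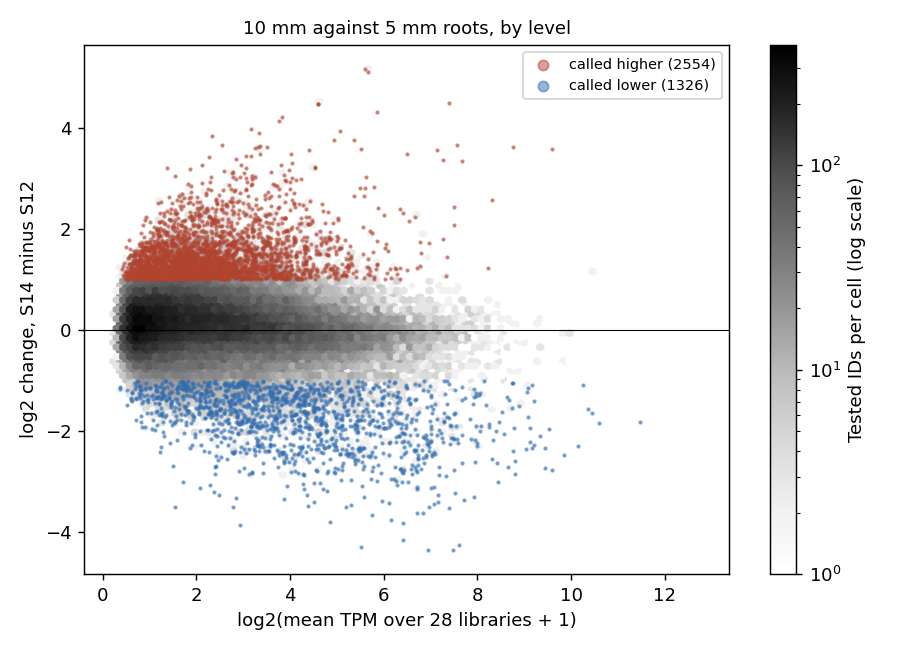
Log2 change of each tested ID between 10 mm and 5 mm roots (S14 minus S12, vertical axis) against log2 of its mean TPM over 28 libraries plus 1 (horizontal axis). Grey cells count tested IDs on a log scale, red points are the 2554 IDs called higher and blue points the 1326 called lower, and the blue points reach further to the right, to higher levels, than the red.

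The fall of the abundant IDs took up a visible part of the transcriptome. The 1326 lower IDs together held 6.91%, 10.2%, 6.07% and 7.04% of the TPM in S12 replicates 1, 2, 4 and 5, and 2.35%, 2.16%, 1.72% and 1.93% in S14 replicates 2, 3, 4 and 5. The 2554 higher IDs held 0.990%, 0.755%, 1.36% and 0.907% in the same S12 libraries, and 4.48%, 4.33%, 2.61% and 3.51% in the S14 libraries. In these 8 libraries the separation follows from how the IDs were called and is given as a description. The 169 abundant lower IDs alone held 5.00% ± 1.34 (SD, n = 4) of the TPM at S12 and 1.38% ± 0.265 (SD, n = 4) at S14.

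The other 20 libraries did not enter this contrast and show how the lists stood in thinner and thicker roots. The higher IDs were low and flat in thinner roots, at 0.732% ± 0.154 of the TPM at S4, 0.817% ± 0.132 at S8 and 0.762% ± 0.10 at S10 (SD, n = 4 each). In thicker roots they held 2.75% ± 0.428 at S16 and 5.36% ± 1.01 at S20, and the lowest S16 library (2.46%) lay above the highest library of S4, S8 and S10 (0.945%). The lower IDs had a graded decline, from 14.1% ± 1.44 at S4 through 12.6% ± 1.55 at S8 and 9.92% ± 1.53 at S10 to 2.40% ± 0.412 at S16 and 0.900% ± 0.0209 at S20. Much of this sum came from the abundant IDs, which made up 67.3% of it at S10.

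**Figure D2:**
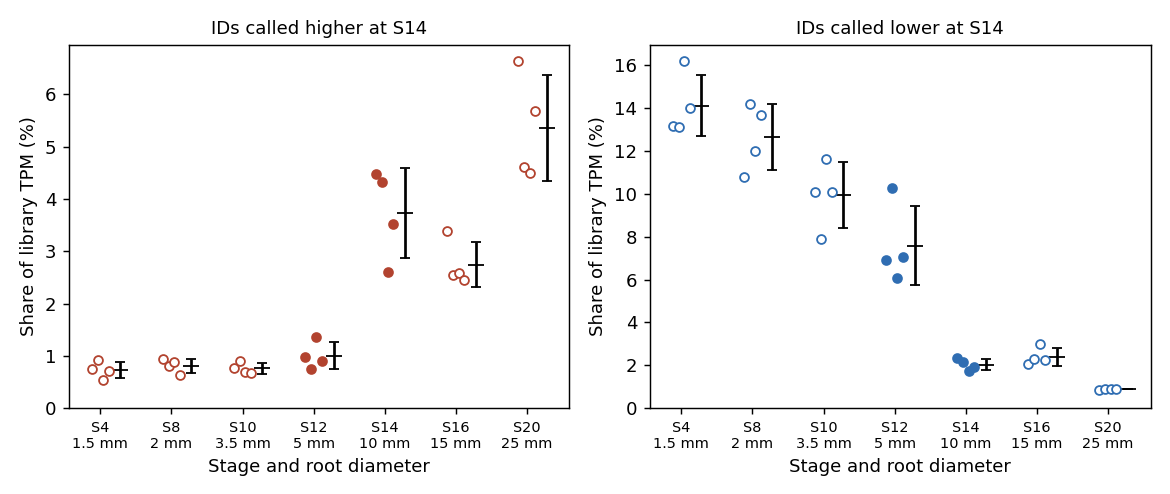
Share of each library's TPM held by the IDs called higher (left) and lower (right) at S14, by stage and root diameter. Each point is a library, filled for S12 and S14, which were used to call the IDs, and open for the other stages, with the mean and SD of 4 libraries as a bar beside them. The higher IDs stay under 1% up to 3.5 mm and the lower IDs decline from 14.1% at 1.5 mm to 0.900% at 25 mm.

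Per ID, the pattern was the same in its main features. The median of the stage mean of log2(TPM + 1) for the higher IDs was 0.89 at S4, 0.99 at S8 and 1.03 at S10, and 2.31 at S16 and 2.99 at S20. For the lower IDs it was 4.60, 4.42 and 4.35 in the thin roots, and 2.57 at S16 and 1.32 at S20. Over all tested IDs the median moved from 1.59 at S4 to 2.11 at S20. Among the 5 stages other than S12 and S14, S20 was the highest stage for 83.1% of the higher IDs and the lowest for 87.6% of the lower IDs, against 38.7% and 24.4% of all tested IDs. In median, the per-ID decline of the lower list was small before S12, whereas its TPM sum, dominated by abundant IDs, declined from S4 on.

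**Figure D3:**
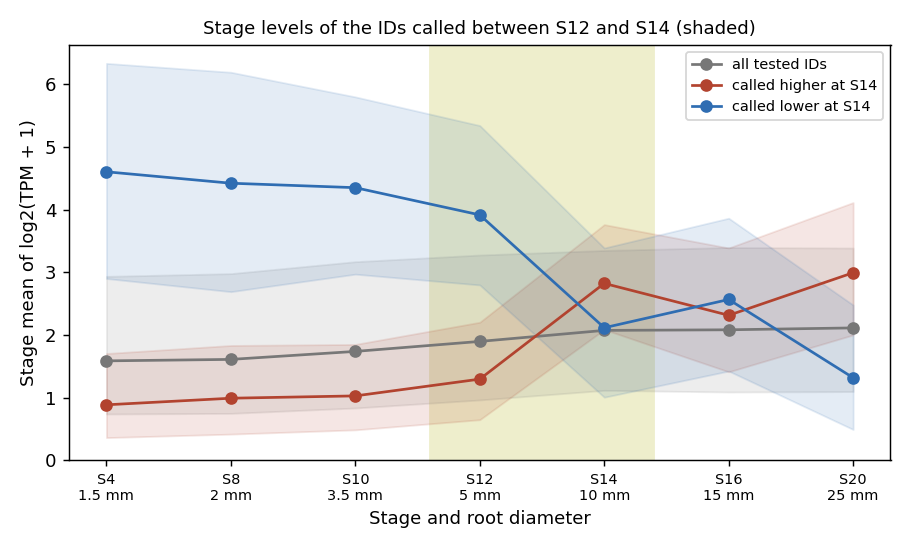
Stage mean of log2(TPM + 1) by stage and root diameter, as the median (line) and quartiles (band) over the 2554 higher IDs (red), the 1326 lower IDs (blue) and all 75757 tested IDs (grey). The shaded stages, S12 and S14, were used to call the IDs. The red medians lie between 0.89 and 1.03 up to 3.5 mm and reach 2.99 at 25 mm, and the blue medians go from 4.60 to 1.32.

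The stages on either side, S10 (3.5 mm) and S16 (15 mm), gave a comparison across a wider interval of thickness with none of the 8 libraries. It also takes in the changes from S10 to S12 and from S14 to S16. In S16 against S10, 1378 of the 2554 higher IDs (54.0%) were called higher, where 11.0% of all tested IDs were, and 904 of the 1326 lower IDs (68.2%) were called lower, where 4.41% were. Opposite calls were made for 2 of the higher and 6 of the lower IDs. The calls in the same direction were 16.5% of all IDs higher at S16 and 27.0% of all IDs lower at S16. Both contrasts took the spread of each ID from the same 28 libraries, so an ID with a small spread was more readily called in both. The lists were not matched in level to all tested IDs. The median of the mean TPM was 3.59 for the higher, 15.3 for the lower and 3.29 for all tested IDs. With median-of-ratios scaling the shares of the lists, called anew, were 44.2% and 75.8%, against 6.23% and 6.26% of all tested IDs. With quantile normalization they were 45.5% and 70.3%, against 6.26% and 6.25%. The total of 2282 shared calls was 1416 without S12 replicate 2.

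Few of the IDs that rose at S14 had been called at the onset of thickening, S10 against S8. The lists were not matched in level to all tested IDs there. Median TPM at S8 and S10 was 1.09 and 1.105 for the higher IDs and 22.0 and 21.2 for the lower IDs. Over all tested IDs it was 2.30 and 2.58. The share called rose with level in S14 against S12, and the part of level in the shares below was not tested. Among the 2554 higher IDs, 30 were called higher at S10 (1.17%, against 2.87% of all tested IDs) and 25 lower (0.979%, against 1.51%), and their median log2 change was 0.00, against 0.14 over all tested IDs. The lower IDs were split at that point, with 100 called higher (7.54%) and 95 called lower (7.16%) at S10, where 2.87% and 1.51% of all tested IDs were. The balance depended on the scaling. After median-of-ratios scaling, 7 of the 1543 higher IDs (0.454%) were called higher at S10 and 38 (2.46%) lower. Of the 1424 lower IDs, 76 (5.34%) were called higher and 211 (14.8%) lower. Over all tested IDs these shares were 1.53% and 3.34%. After quantile normalization, 1.31% of the higher list were called higher and 1.65% lower, and 5.58% and 8.34% of the lower list. Over all tested IDs they were then 1.65% and 2.08%.

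Between 15 mm and 25 mm roots, part of both lists moved in the direction taken at S14. This followed a step back at 15 mm. The median of log2(TPM + 1) for the higher IDs was 2.82 at S14, 2.31 at S16 and 2.99 at S20, and for the lower IDs 2.12, 2.57 and 1.32. The share of TPM held by the higher IDs was likewise 3.73% ± 0.861 at S14 (SD, n = 4), above its mean at S16 and below that at S20. The S14 level was among the values that chose the lists. In the comparison of S20 with S16, too, the lists were not matched in level to all tested IDs. In S20 against S16, 492 of the higher IDs were called higher again (19.3%, against 3.17% of all tested IDs) and 13 lower. Of the lower IDs, 479 were called lower again (36.1%, against 2.76%) and 2 higher. The median log2 change from S16 to S20 was 0.62 for the higher and -1.03 for the lower IDs. With median-of-ratios scaling the shares of the lists, called anew, were 25.2% and 31.3%, against 3.32% and 1.92% of all tested IDs. With quantile normalization they were 23.3% and 31.1%, against 3.38% and 2.79%.

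**Figure D4:**
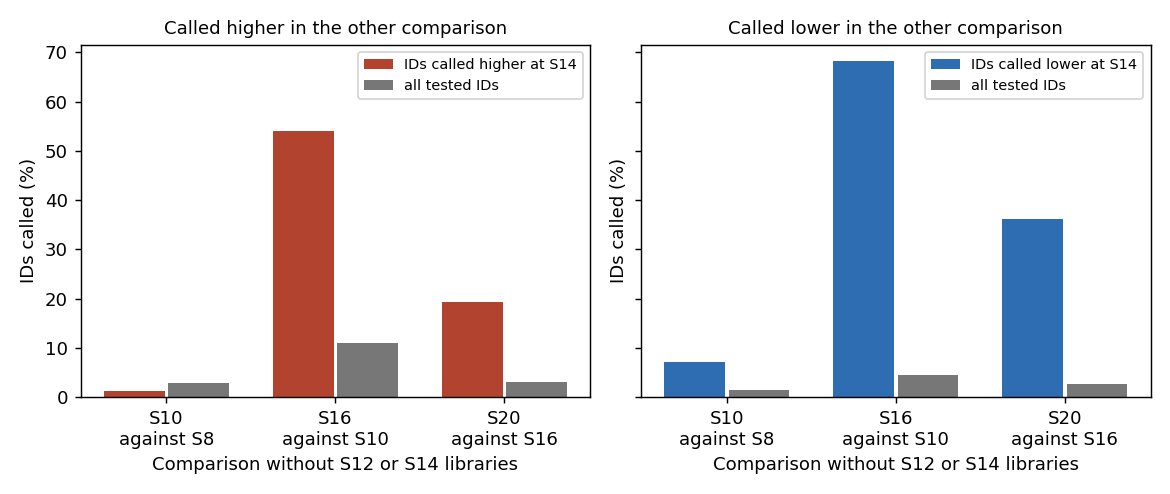
Percent of IDs called in 3 comparisons that use no S12 or S14 library (bars from 0), for the IDs called higher at S14 (left, red), the IDs called lower at S14 (right, blue) and all tested IDs (grey), each counted in the list's own direction. For S10 against S8 the red bar, 1.17%, is below the grey bar, 2.87%, and for S16 against S10 the blue bar reaches 68.2%. Red and blue bars are not matched in level to the grey bars.

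The change from 5 mm to 10 mm was also tested against the other changes directly, by the difference of 2 log2 changes in the same limma fit. Against the change from S8 to S10, which shares no library with it, 4732 IDs differed (6.25%). In 2158 of them (2.85%) the S12 to S14 change was the more positive, with medians of 1.08 for S12 to S14 and -0.48 for S8 to S10, and in 2574 (3.40%) it was the more negative, with medians of -0.67 and 1.06. Opposite signs were found in 1933 and 2396 of these. Against the change from S16 to S20, which also shares no library, 363 IDs differed (0.479%). In 198 (0.261%) the S12 to S14 change was the more positive, with medians of 1.13 and -0.92, and in 165 (0.218%) it was the more negative, with medians of -0.0019 for S12 to S14 and 1.90 for S16 to S20. This count was 233 without S12 replicate 2 and 217 without S14 replicate 3.

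The neighbouring changes share a stage with it. Against the change from S14 to S16, 1428 IDs differed (1.88%), 1135 of them (1.50%) with a median of 1.46 from S12 to S14 and -0.999 from S14 to S16, and 293 (0.387%) with medians of -1.72 and 0.92. This count rested on single S14 libraries, as it was 149 without S14 replicate 3, 278 without replicate 2 and 615 without replicate 5, and 2730 without replicate 4. Without S12 replicate 2, 4 or 5 it was 780, 2147 or 856. Against the change from S10 to S12, 20 IDs differed (0.0264%), and 5313 (7.01%) had an unadjusted p under 0.05 in limma. The count was 12, 10 and 7 without S12 replicates 1, 2 and 4, 10 without S14 replicate 2 or 5, and 81 without S14 replicate 4. The change from S10 to S12 itself had 512 calls (0.676%) against the 3880 from S12 to S14, but few single IDs passed the test of the difference.

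The libraries of the 2 stages stood apart by a small margin. On the first principal component of all 28 libraries, which held 41.5% of the variance, S12 replicates 1, 2, 4 and 5 lay at -7.91, -42.4, 52.9 and 3.11, and S14 replicates 2, 3, 4 and 5 at 131, 121, 111 and 95.3. S12 replicate 4 was the pencil library nearest to the storage libraries. The root mean square distance in log2(TPM + 1) ranged from 0.740 to 0.904 between S12 libraries, from 0.736 to 0.867 between S14 libraries and from 0.851 to 1.07 between libraries of the 2 stages, so the nearest libraries across stages were closer than the farthest within a stage. All S14 values lay above all S12 values for 7006 IDs (9.25%) and below them for 3507 (4.63%), and 1894 and 1088 of these were also called.

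The count of calls depended on single libraries. It was 2186 without S12 replicate 2 and 2287 without S14 replicate 3, and lay between 2722 and 4823 when any of the other 6 libraries was left out. Called in the same direction in all 8 of these fits were 995 higher IDs (39.0% of the higher calls) and 499 lower IDs (37.6%).

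IDs with 1 TPM or more numbered 55750, 55035, 58392 and 56498 in S12 replicates 1, 2, 4 and 5 and 58229, 60992, 59410 and 60691 in S14 replicates 2, 3, 4 and 5. The groups overlapped by S12 replicate 4 and S14 replicate 2. The difference of 3412 IDs was not past the threshold (two-sided exact permutation p = 0.0571, where the smallest possible p is 0.0286). The outcome depended on the limit. At 5 TPM the difference was 2130.0 IDs (two-sided exact permutation p = 0.0286, the smallest possible), at 0.1 TPM 1199 IDs (exact permutation p = 0.171), and at 1 TPM after median-of-ratios scaling 2072.5 IDs (exact permutation p = 0.0857). The 1000 most abundant IDs held 34.7% ± 1.85 of the TPM at S12 and 35.2% ± 3.21 at S14 (SD, n = 4 each; two-sided exact permutation p = 0.857), a difference within the spread between replicates.

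Rows that share a G number carry different TU numbers, and their TPM values were also summed. The sum was called in 2911 of 42800 G numbers (6.80%), 1976 higher (4.62%) and 935 lower (2.18%) at S14, and in 1841 without S12 replicate 2. Of 1225 called IDs whose G number had at least 2 tested rows, 890 (72.7%) had a sum called in the same direction, 333 had a sum that was not called and 2 had a sum called in the opposite direction. Among 228 G numbers with at least 2 called rows, 225 had all of these in one direction and 3 had rows in both. IDs with the prefix MSTRG, which carry no G number, were called in 4.18% of 18601 tested, and G and TU rows in 5.43% of 57156.

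IDs listed at 0 in 1 of the stages were few. Of 75757 tested IDs, 27 were at 0 in all S12 libraries with at least 1 TPM in all S14 libraries, and 23 of these were called. The reverse pattern was found in 18 IDs, of which 15 were called. These calls follow largely from the pattern itself. All 18 of the latter, and 25 of the 27, had at least 1 TPM in some library of S4, S8 or S10. In all S16 and S20 libraries, 1 of the 27 and 0 of the 18 had at least 1 TPM. With depth unknown, a 0 need not mean absence.

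Among more abundant IDs, with means of 10 TPM or more in whichever stage was higher, 689 higher (0.909% of those tested) and 719 lower IDs (0.949%) were called and did not overlap between the stages. Of these, 4 higher and 3 lower IDs were listed at 0 in all libraries of a stage. Without them the log2 changes reached 4.21 in size for the higher and 4.36 for the lower IDs. The medians of all were 1.51 and -1.85. In S16 against S10, 515 of the higher IDs (74.7%) were called higher, where 11.0% of all tested IDs were, and 552 of the lower IDs (76.8%) were called lower, where 4.41% were. These shares are not compared at like level. The sets were chosen for abundance, while the median of the mean TPM over all tested IDs was 3.29. Values are given for 4 IDs of these sets, in each direction the ID with the largest log2 change and the ID with the largest difference in TPM. Each row carries a number without a gene name and need not be a whole gene. In a hexaploid the division of reads among near-identical copies is uncertain.

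MSTRG.32006 had the largest rise in TPM. It was at 51.3, 54.0, 157 and 26.6 TPM in S12 replicates 1, 2, 4 and 5, and at 1011, 949, 185 and 771 TPM in S14 replicates 2, 3, 4 and 5. The stages did not overlap, but S14 replicate 4 was close to the highest S12 library. The log2 change was 3.36 (SE 0.93, limma adjusted p = 0.0269), from 72.3 ± 58.0 to 729 ± 376 TPM (SD, n = 4 each). The call was lost when any library but S12 replicate 4 or S14 replicate 4 was left out, with limma adjusted p of up to 0.0864. Its level was between 3.47 and 52.3 TPM in the libraries of S4, S8 and S10, and the S16 libraries had 101 ± 106 TPM and the S20 libraries 104 ± 72.9 (SD, n = 4 each), so the 10 mm roots held its highest stage mean.

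G2082_TU3470 had the largest fall in TPM. It was at 3181, 3731, 1833 and 3866 TPM in S12 replicates 1, 2, 4 and 5, and at 1290.2, 1104, 768 and 480.45 TPM in S14 replicates 2, 3, 4 and 5. All S14 libraries lay below all S12 libraries. The log2 change was -1.83 (SE 0.47, limma adjusted p = 0.0178), and the call was lost without S12 replicate 2 or 5 or S14 replicate 5, with limma adjusted p of 0.0607, 0.0549 and 0.0632. Its stage means followed root diameter throughout, at 5898 ± 1659 TPM at S4, 4941 ± 1623 at S8, 4264 ± 368 at S10, then 539 ± 78.8 at S16, and lastly 72.2 ± 45.0 at S20 (n = 4 each, SD). In S16 against S10, which uses other libraries, the log2 change was -2.99 (SE 0.47, limma adjusted p = 5.5e-05).

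G25757_TU42280 had the largest fall on the log2 scale. It was at 134, 348, 272 and 146 TPM in S12 replicates 1, 2, 4 and 5, and at 22.1, 10.7, 6.17 and 4.49 TPM in S14 replicates 2, 3, 4 and 5. The lowest S12 library was thus well above the highest S14 library. The log2 change was -4.36 (SE 0.87, limma adjusted p = 0.00339), and it stayed called in every alternative run. In S16 against S10 it was -2.61 (SE 0.87, limma adjusted p = 0.0289). Its level in thin roots varied widely, from 20.3 to 639.7 TPM among the S4 libraries and from 14.4 to 243 among those of S8.

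G13075_TU21422 was chosen for the largest fitted rise on the log2 scale, whose size depends on the pseudocount. It was listed at 0 in all 4 S12 libraries and at 23.0, 52.2, 8.73 and 116 TPM in S14 replicates 2, 3, 4 and 5 (limma adjusted p = 0.0157), and no fold is given against 0. It was also listed at 0 in 2 of the S4 libraries and 1 of the S10 libraries, and stood at 57.2 to 233 TPM in the S8 libraries. In S16 against S10 the log2 change was 1.48 (SE 1.29, limma adjusted p = 0.441). The call was lost without S14 replicate 3 or 5, with limma adjusted p of 0.0517 and 0.0526.

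**Figure D5:**
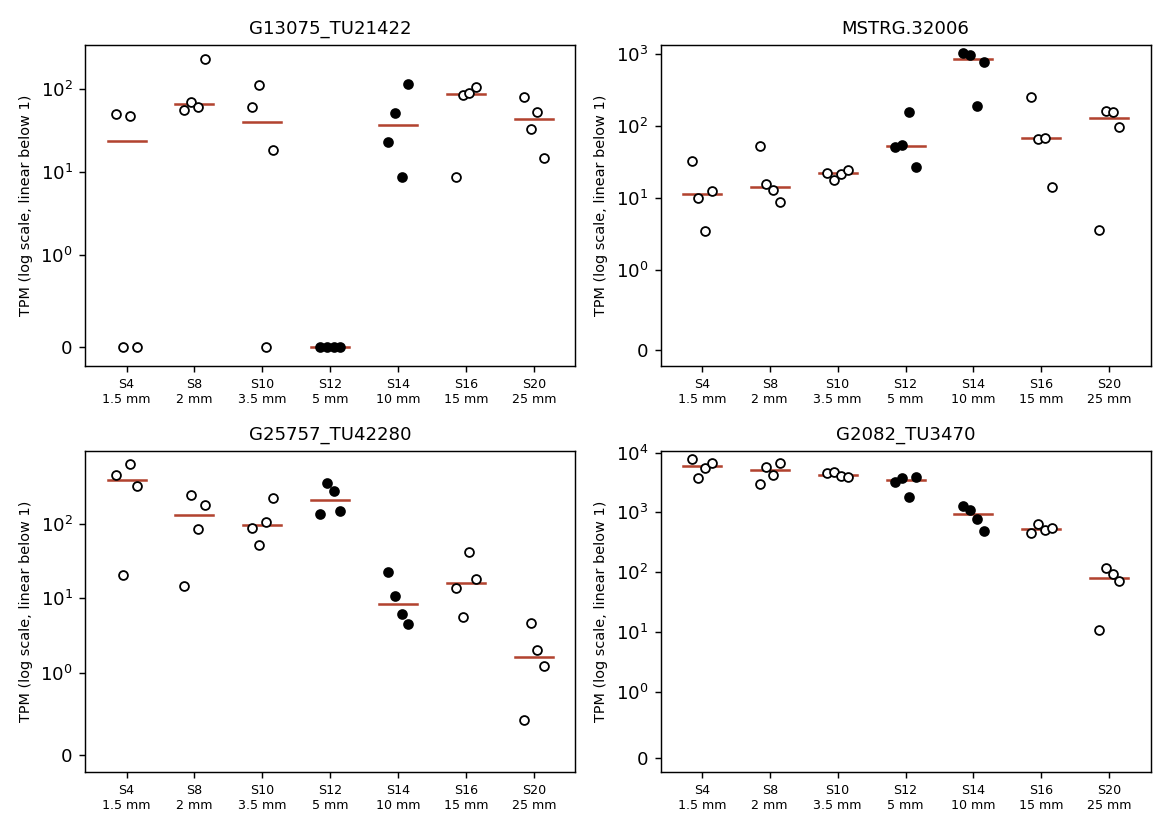
TPM of the 4 IDs in each of the 28 libraries by stage and root diameter, on a log axis that is linear below 1 TPM. Points are libraries, filled for S12 and S14, and red lines are stage medians. G2082_TU3470 goes down with diameter, MSTRG.32006 is highest at S14, G25757_TU42280 is lower in every S14 library than in any S12 library, and G13075_TU21422 lies at 0 in S12 and in some thinner roots.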

How the data were processed

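The authors deposited a table of TPM values, 1 column per library, and the labels' descriptions matched each of its 28 columns to a sample (0 columns unmatched). TopHat2 2.0.0 and RSEM 1.3.1 are named, per the submitters' processing notes. Their roles, the genome build and the annotation are not given in the sources used here. TPM keeps no depth, so read numbers are unknown, no counting interval was computed, and precision was judged from the spread between 4 libraries per stage. How replicate roots were sampled is not stated beyond "biological".

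Values were analysed as log2(TPM + 1). With limma 3.58.1 (R 4.3.3), 7 stage means were fitted over 28 libraries with a trended prior, and p-values were Benjamini-Hochberg adjusted over all 75757 tested IDs. Exact permutation tests counted all 70 assignments of the 8 libraries to 2 stages. Python 3.11.15, pandas 2.3.3, NumPy 2.4.6 and Matplotlib 3.10.9 made summaries and plots. The fit was tested on simulated data. The comparison, the lists and the tests were chosen with earlier results of these data known. Named IDs were called, did not overlap and reached a mean of 10 TPM in S12 or S14. In each direction the largest log2 change and the largest TPM difference were taken. Alternatives were other pseudocounts, filters, scalings, library weights, a replicate block, no fold threshold, a fit to 8 libraries and leaving out each library. The counts by direction under other scalings and the calls shared by all leave-out fits were added after seeing the data.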

Additional observations from a re-analysis of the deposited data

Results flagged for a closer look

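For 3 of the named IDs the change from S12 to S14 differed from another change in limma, past the adjusted threshold. The IDs were chosen for large S12 to S14 changes, so these p-values are biased toward a difference and are given as a description. For G2082_TU3470 no such difference passed (limma adjusted p of 0.124 to 0.799). G13075_TU21422 changed by 7.30 more on the log2 scale from S12 to S14 than from S8 to S10 (limma adjusted p = 0.0177). This value rests on entries of 0 in all S12 libraries and in S10 replicate 3. G25757_TU42280 had a difference of -4.60 from its S8 to S10 change (limma adjusted p = 0.0253). MSTRG.32006 had a difference of 6.59 between its S12 to S14 and its S14 to S16 change (limma adjusted p = 0.0325), which share the S14 libraries.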

How the results depend on the processing

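Depth is unknown, so the precision of low values could not be computed. With a pseudocount of 5 the calls fell to 1410, of which 679 were higher and 731 lower, G number calls were 1127, IDs also called in S16 against S10 were 839 (2282 as reported), and differences from the S8 to S10 change were 2355. With a pseudocount of 0.1 the differences from the S10 to S12, S14 to S16 and S16 to S20 changes were 1, 418 and 97, and with 5 the first was 47. Median-of-ratios scaling gave 1543 higher IDs, 12 differences from the S10 to S12 change and 935 from S14 to S16. The median log2 change was 0.0093 with it and 0.0081 with quantile normalization. Library weights raised the calls to 5978 (3995 higher), G numbers to 4527, and the differences from S10 to S12, S14 to S16, S8 to S10 and S16 to S20 to 135, 4338, 9376 and 1383. With no fold threshold 6051 IDs (4382 higher) and 5037 G numbers passed. A fit to the 8 libraries alone gave 1894 calls, 1123 higher and 771 lower. A filter of 5 TPM gave 794 differences for S14 to S16 and 234 for S16 to S20.

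Leaving out 1 library gave 2186 to 4823 calls, 1453 to 3322 higher and 678 to 1501 lower, 1841 to 3669 G numbers, 1416 to 2791 IDs also called in S16 against S10, and a median log2 change of 0.07 to 0.12. Differences from S10 to S12 were 7 to 81, 149 to 2730 for S14 to S16, 3164 to 5491 for S8 to S10 and 217 to 485 for S16 to S20. The difference in IDs at 1 TPM or more was 2950.5 to 4069.5 (2130.0 at a limit of 5 TPM and 1199 at 0.1 TPM), and that in the share of the top 1000 IDs -1.15 to 1.16 percentage points. With the top 10000 IDs it was -2.28 points and with the top 100 IDs 3.14 points (two-sided exact permutation p = 0.0857 and 0.229).

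The replicate numbers of the labels gave no clear pairing of the libraries. Deviations from the stage means correlated at -0.05, -0.21 and -0.18 across IDs for description numbers 2, 4 and 5, and at 0.01, 0.07, -0.21 and -0.18 for title numbers 1 to 4. By description number, no library correlated best with its own number. By title number, only the libraries of title number 2 (S12 replicate 2 and S14 replicate 3) correlated best with each other, at 0.07. A replicate block by description number gave 3701 calls, 2260 higher and 1441 lower, and by title number 3783. Differences from the S10 to S12 change were 3 and 7 with these blocks. The causes were not tested.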
